A study of Mus musculus with 4 samples.

Results

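The nuclear oxidative phosphorylation genes are the nuclear-encoded genes of the 5 respiratory complexes of mitochondria. They were taken as all protein-coding nuclear genes whose symbol starts with Nduf, Sdh followed by a letter from a to d, Uqcr, Cox4 to Cox8, or Atp5. This gave 97 genes of 21911 nuclear protein-coding genes in the GENCODE M21 annotation of mm10: 46 for complex I, 8 for complex II, 8 for complex III, 18 for complex IV and 17 for complex V. The symbols also take in assembly factors that are not part of the finished enzymes, namely 8 Ndufaf genes and 4 Sdhaf genes. They leave out Cyc1, the cytochrome c1 gene of complex III, which is counted with the electron carriers below. CTCF was mapped by ChIP-seq in hearts of female 2-month-old B6CASTF1/J mice, which are first-generation hybrids of C57BL/6 and the wild-derived strain CAST. Hearts were combined into pool G (biological replicate 2) and pool H (biological replicate 1), each made of 2 heart biosamples and sequenced as 2 technical libraries. All 4 libraries share strain, sex, age and tissue, with no second condition, so no groups were compared and the values below are descriptions. Whole heart holds many cell types, and a peak does not tell in which of them CTCF was bound. The deposited lists do not measure expression, so the tissue label could not be checked against marker genes.

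CTCF is a zinc-finger protein that binds a long DNA motif, and it is known for holding the bases of chromatin loops and for the boundaries between chromatin domains. It also binds near many gene starts. The respiratory chain passes electrons from NADH (through complex I) or succinate (complex II) to ubiquinone, then through complex III and cytochrome c to complex IV, and complex V (ATP synthase) uses the resulting proton gradient to make ATP. Heart muscle depends on this process more than most tissues. Several complex IV subunits exist as a form made in heart and skeletal muscle and a form made in most other tissues.

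A gene was counted as having a promoter peak when a summit of the conservative list lay within 1 kb of any of its annotated transcription start sites (TSSs). That list holds 54309 peaks that passed the irreproducible discovery rate (IDR, a measure of agreement between replicate peak rankings) threshold of 0.05, or 540 on the scaled form that the files use. Signal is the authors' score per peak, in a unit not given in the sources used here, and it is compared only within a list. The median signal over all conservative peaks was 286.

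The sequences under 7 of these promoter peaks are shown first, because they set strong peaks with a core outside marked repeats beside weak peaks with a core on a repeat. A 12-base CTCF core, the central part of the factor's motif, was searched on both strands within 100 bp of each summit, with 1 mismatch allowed. Each line gives the core in capitals with 14 bases on each side, 5′ to 3′ on the strand that carries the core, from mm10 (GRCm38.p6).
Uqcrc1: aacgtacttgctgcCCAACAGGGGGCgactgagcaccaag
Ndufa6: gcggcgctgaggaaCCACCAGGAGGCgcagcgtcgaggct
Ndufb10: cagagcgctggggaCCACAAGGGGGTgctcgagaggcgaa
Ndufv2: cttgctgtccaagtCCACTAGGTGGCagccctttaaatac
Ndufa13: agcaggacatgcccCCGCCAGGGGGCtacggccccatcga
Cox7b: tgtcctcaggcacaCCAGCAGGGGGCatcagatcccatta
Cox6b1: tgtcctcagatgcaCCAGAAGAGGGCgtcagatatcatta
The first 5 are among the strongest peaks with a core. They lie at chr9:108936602-108936641 (plus strand), chr15:82354416-82354455 (plus), chr17:24724484-24724523 (minus), chr17:66101874-66101913 (minus) and chr8:69901577-69901616 (minus). The last pair, at chrX:106018942-106018981 (plus) and chr7:30624066-30624105 (plus), belongs to weak peaks at complex IV genes. Those 2 stretches, from the X chromosome and chromosome 7, were identical at 32 of 40 bases (80.0%), and the reference genome marks both as repeat sequence.

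Promoters of 4 genes from RefSeq (GRCm38.p6) are shown to contrast a strong peak with a core, a weaker peak without one, and the heart forms of complex IV subunits, which had no promoter peak. Each line gives the 250 bases before the RefSeq start site, 5′ to 3′ on the strand of the gene. Capitals mark a 12-base CTCF core or the word GCGCATGC, in either orientation, from the motif of NRF1, a transcription factor known to act on respiratory genes.
Uqcrc1: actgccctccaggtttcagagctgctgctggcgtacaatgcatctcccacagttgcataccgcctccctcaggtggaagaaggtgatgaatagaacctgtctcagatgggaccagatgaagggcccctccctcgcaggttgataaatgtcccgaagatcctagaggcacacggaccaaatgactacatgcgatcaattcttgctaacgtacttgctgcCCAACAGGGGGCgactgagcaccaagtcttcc
Cox6a1: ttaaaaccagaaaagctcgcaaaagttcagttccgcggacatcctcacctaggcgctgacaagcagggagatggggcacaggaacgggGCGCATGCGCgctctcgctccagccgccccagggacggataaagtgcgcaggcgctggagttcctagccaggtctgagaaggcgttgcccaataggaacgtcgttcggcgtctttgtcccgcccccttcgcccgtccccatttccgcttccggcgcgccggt
Cox7a1: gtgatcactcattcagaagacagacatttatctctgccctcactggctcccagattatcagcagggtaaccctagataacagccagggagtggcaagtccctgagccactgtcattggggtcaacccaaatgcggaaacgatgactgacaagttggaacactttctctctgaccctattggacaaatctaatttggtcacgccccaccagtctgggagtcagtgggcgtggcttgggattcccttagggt
Cox8b: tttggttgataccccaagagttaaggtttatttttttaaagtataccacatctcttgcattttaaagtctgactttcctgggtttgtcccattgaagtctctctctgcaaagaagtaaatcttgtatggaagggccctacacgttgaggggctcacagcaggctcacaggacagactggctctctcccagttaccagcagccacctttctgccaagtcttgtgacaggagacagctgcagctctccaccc
The Uqcrc1 window (chr9:108936398-108936647, plus strand) holds a core at bases 219 to 230, and the peak summit is at base 206. The Cox6a1 window (chr5:115348959-115349208, minus strand) holds no core, has its summit at base 58, and has both orientations of the NRF1 word overlapping at bases 89 to 98. The windows of Cox7a1 (chr7:30183921-30184170, plus strand) and Cox8b (chr7:140900447-140900696, minus strand) hold neither, and no summit falls in them. CpG dinucleotides numbered 26 in the Cox6a1 window, 8 in that of Uqcrc1, 4 in that of Cox7a1 and 1 in that of Cox8b.

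A promoter peak was found at 38 of the 97 genes, which is 39.2% (95% exact binomial interval over genes 29.4 to 49.6), against 34.6% of all nuclear protein-coding genes. Complex V had the highest, 11 of 17 genes (64.7%, interval 38.3 to 85.8). Complex I had the lowest, 13 of 46 (28.3%, 16 to 43.5), and complex IV had 6 of 18 (33.3%, 13.3 to 59.0). Complexes II and III each had 4 of 8 (50%, 15.7 to 84.3). In this list only the interval of complex V lay wholly above the share of all genes, and it did so under 5 of 11 alternatives. With the pool H list alone complex V had 9 of 17 genes (27.8 to 77, against 32.8%), and with 1 TSS per gene 7 of 17 (18.4 to 67.1, against 27.1%). These intervals treat genes as independent draws, which genes of 1 family are not. Ndufa4, which is now known as a complex IV subunit despite its name, and its relative Ndufa4l2 had no peak. Counting them with complex IV gave 6 of 20 genes (30%), and complex I without them had 13 of 44 (29.5%).

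**Figure D1:**
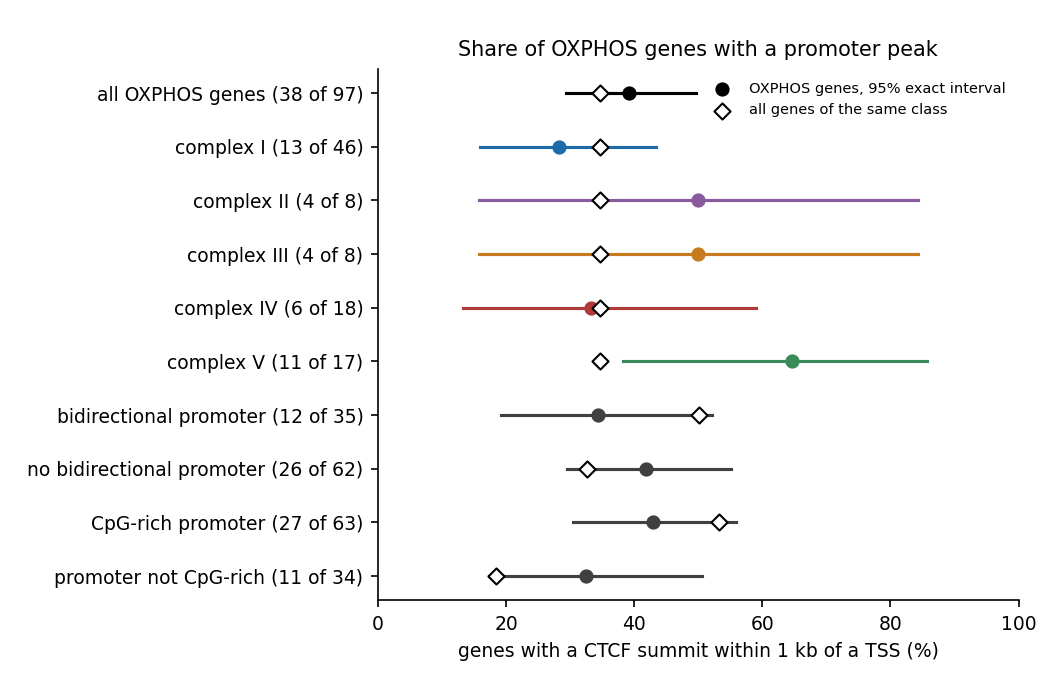
Share of oxidative phosphorylation (OXPHOS) genes with a conservative CTCF summit within 1 kb of a TSS, in percent, by respiratory complex and promoter class; filled points with lines are these genes with 95% exact intervals, and open diamonds are all protein-coding genes (for the last 4 lines, all genes of that promoter class). Complex V, at 64.7%, is the complex whose interval lies above the diamond at 34.6%, and all other intervals take in their diamonds.

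Over the 38 genes, the median signal of the strongest promoter peak was 414, against 301 over all 7571 genes with a promoter peak. The values fell toward both ends: 14 genes (36.8%) were at 600 or more, 16 (42.1%) were under 250, and 8 (21.1%) lay between. Over all genes with a promoter peak these shares were 24.7%, 43.9% and 31.4%. Peaks at or above the list median were found at 22 genes, 22.7% of the 97, against 17.9% of all genes. Counted by summit, the order of the medians was reversed. The 48 summits at these genes had a median signal of 208, against 241 over the 9229 summits at all protein-coding promoters. At or above the list median were 45.8% of the 48 summits and 44.8% of the 9229. The 13 complex I genes with a peak had a median of 674, and 11 of them were at or above the list median. The 6 complex IV genes all lay below it, between 71.5 and 196.

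**Figure D2:**
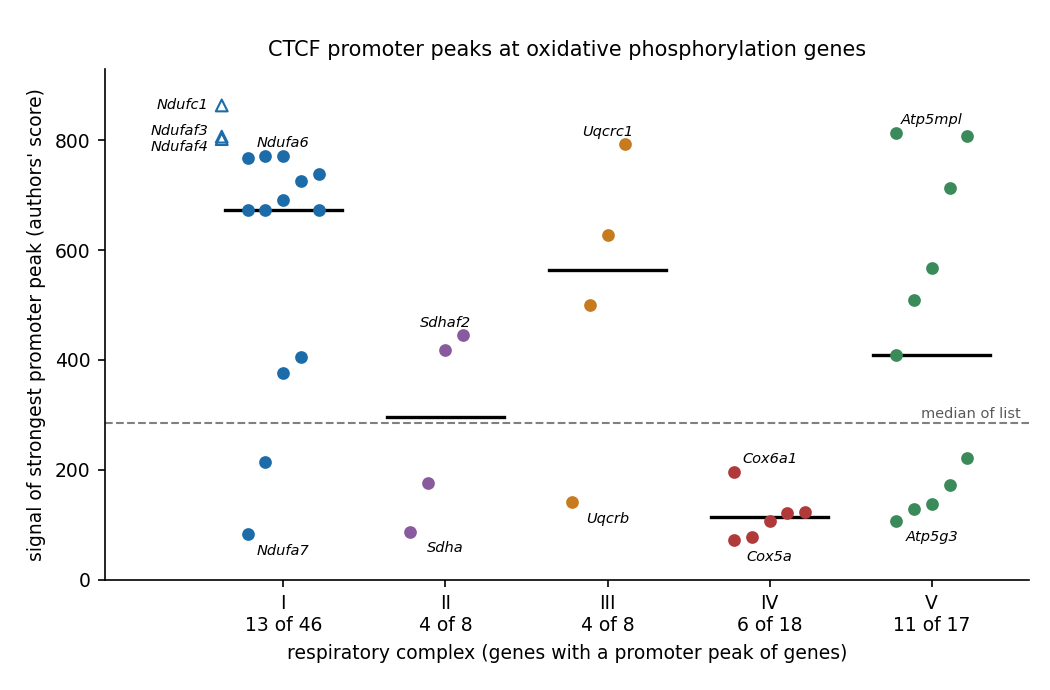
Signal of the strongest CTCF promoter peak (authors' score) at each gene with a peak, by respiratory complex, with the median of each complex as a bar and the list median of 286 as a dashed line. The 6 complex IV peaks lie between 71.5 and 196, below the dashed line; the 3 open triangles are complex I genes whose strong candidates are not in the conservative list.

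In complex I, the entry point for electrons from NADH, peaks were found at 12 of 38 subunit genes, with Ndufa4 and Ndufa4l2 counted in. That is 31.6% (interval 17.5 to 48.7), against 34.6% of all genes. All 3 Ndufv genes, which encode part of the module that oxidises NADH, had a peak. The exact interval, 29.2 to 100, takes in the 34.6% of all genes. Ndufs1, which encodes another part of that module, had none. Ndufv2 measured 727 (398 in pool G and 335 in pool H), 339 bp upstream of a TSS. Ndufv1, the FMN-binding subunit, measured 673 (358 and 320), and Ndufv3, an accessory subunit, measured 215 (120 and 97). The Ndufv3 summit lay 9366 bp from the 5′ end of the gene, near a start annotated inside it. Ndufv3 was the lowest of the 3 genes in each pool.

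Among genes named for accessory subunits, 6 of 15 Ndufa genes (40%) and 2 of 10 Ndufb genes (20%) had a peak. The Ndufa genes counted include Ndufa4 and Ndufa4l2. The intervals, 16.3 to 67.7 and 2.52 to 55.6, both take in the 34.6% of all genes. Ndufa6 and Ndufab1, the latter an acyl carrier protein, measured 772 and 674. Ndufb7 and Ndufb10, both of the membrane arm, measured 769 and 739. Their summits were close to the start of the gene, 3 bp upstream of a TSS at Ndufb7 and 28 bp upstream at Ndufb10. Ndufa13 measured 691 (369 and 322), and its summit, in a coding exon, was 998 bp downstream of the TSS and only just within the 1 kb limit. Ndufa12 measured 406 and Ndufa3 377. Ndufa7 was the weakest of the complex, at 82.4 (52.7 and 35.3), in an intron 4509 bp from the 5′ end of the gene. Neither Ndufc gene had a peak in the conservative list.

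Assembly factors of complex I, which build the enzyme and then leave it, had a conservative peak at 1 of 8 genes. The gene was Ndufaf6, at 673 (358 in pool G and 317 in pool H), 83 bp upstream of its TSS. The share is 12.5%, and its interval, 0.316 to 52.7, takes in the 34.6% of all genes.

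The conservative list does not hold the very strongest candidates, and this bears on complex I. A ranked list of both pools gives every candidate peak with its scaled IDR before the threshold. Of 29547 candidates with signal from 200 to under 750, all but 1 reached 540. Of 1372 candidates at 800 or more, 388 did not. The share reaching 540 was 98.8% from 750 to 800, 80.0% from 800 to 850 and 30% from 850 to 900, and none of the 13 candidates at 900 or more reached it.

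Among the genes without a conservative peak, 3 had such a candidate, and all are complex I genes. At Ndufc1, a small membrane-arm subunit, the candidate at chr3:51408773-51409389 lay 53 bp upstream of a TSS with signal 864 (444 in pool G and 422 in pool H) and scaled IDR 67. It was the strongest value at any of the 97 genes, and only 110 candidates in the ranked list exceeded it. At the assembly factor gene Ndufaf3 the candidate at chr9:108566722-108567376 had signal 807 (409 and 399) and scaled IDR 535, just under the threshold. At Ndufaf4, another assembly factor gene, the candidate at chr4:24897768-24898305 had signal 802 (397 and 408) and scaled IDR 67, and a core without mismatch. The 3 genes were high in both pools. With peak lists called from 1 pool alone, all 3 had a promoter peak in pool G and Ndufaf3 also in pool H. Adding ranked candidates at or above the list median, a choice made after seeing these values, raised the count to 41 genes and that of complex I to 16, against 34.9% of all genes (84 genes more). An absent peak in the conservative list therefore did not mean a low signal at these 3 genes.

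Complex II, succinate dehydrogenase, had peaks at 2 of its 4 subunit genes, both weak, and at 2 of its 4 assembly factor genes. Each share is 50% (interval 6.76 to 93.2), against 34.6% of all genes. Sdha, the flavin-carrying subunit, measured 87.5 (53.8 in pool G and 33.0 in pool H), and Sdhd, a membrane anchor, measured 175 (89.6 and 86.2). Sdhaf2, which attaches the flavin to Sdha, measured 445 (263 and 185), and Sdhaf3, which serves the iron-sulfur subunit, measured 418 (232 and 190). Both assembly factor genes exceeded both subunit genes in each pool.

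In complex III, which passes electrons from ubiquinol to cytochrome c, the peaks lay at Uqcrc1, Uqcrc2, Uqcrh and Uqcrb. The core protein gene Uqcrc1 had the strongest, at chr9:108936280-108936858, with signal 793 (419 in pool G and 375 in pool H). Uqcrc2, the second core protein gene, measured 629 (343 and 288), and Uqcrh, the hinge protein gene, measured 500 (285 and 215). Uqcrb measured 142 (88.5 and 54.1). Uqcrc1 and Uqcrc2 were bound 30 and 44 bp upstream of a TSS. The iron-sulfur protein gene Uqcrfs1 had no promoter peak, and its nearest conservative summit, of signal 832, was 3717 bp upstream.

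In complex V peaks were found at rotor, stalk and membrane genes, though not evenly. The strongest of the 38 was at Atp5mpl, a small membrane proteolipid of the enzyme, at chr12:111966836-111967353, with signal 814 (416 in pool G and 398 in pool H). Its scaled IDR was 722, whereas 35 of the 38 genes had the highest possible value of 1000. Atp5k, the gene of the membrane subunit e, followed at 808 (423 and 388), 28 bp upstream of its TSS.

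The c ring, which turns as protons pass, is encoded by Atp5g1, Atp5g2 and Atp5g3, and all 3 had a peak. Atp5g2 measured 712 (379 in pool G and 337 in pool H), while Atp5g1 measured 138 (90.3 and 51.6) and Atp5g3 measured 107 (64.9 and 44.3). The 3 genes encode the same mature protein, and their promoter signals spanned much of the range of complex V. In the central stalk, Atp5d measured 568, Atp5c1 508 and Atp5e 172. Atp5b, the catalytic beta subunit gene, measured 409, with its summit in an intron 359 bp from an internal TSS. Atp5f1 of the peripheral stalk measured 221, while Atp5h, Atp5j and Atp5o of the same stalk had no peak. Atp5l, another membrane subunit gene, measured 129. Atp5a1, the gene of the alpha subunit that pairs with Atp5b, had no peak and no ranked candidate within 1 kb.

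Complex IV, cytochrome c oxidase, had the weakest peaks. The strongest was at Cox6a1, with signal 196 (119 in pool G and 80.2 in pool H), 170 bp upstream of the TSS. Cox4i1 measured 122 (75.8 and 49.6), Cox7b 122 (67.6 and 52.8), and Cox7a2l, which helps to join complexes into supercomplexes, 107 (66.0 and 41.1). Cox6b1 measured 77.5 (45.9 and 33.9) and Cox5a 71.5 (43.3 and 30.6), the lowest of the 38 genes. The low values held in both pools. Strong peaks lay close by but beyond 1 kb at several of these genes: one of signal 763 was 1192 bp downstream of the Cox6a1 start, and one of 726 was 2253 bp upstream of the Cox7b start.

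Of the complex IV and complex I genes that come as tissue-restricted and ubiquitous forms, none of the 8 restricted forms had a promoter peak (0%, exact interval 0 to 36.9), while 4 of 7 ubiquitous partners did (57.1%, 18.4 to 90.1), all of them weak. Both intervals take in the 34.6% of all genes. None of the 8 restricted forms has a CpG-rich promoter, a class in which 18.5% of all genes had a peak, while 3 of the 7 partners lack one. The restricted forms are Cox6a2, Cox7a1 and Cox8b of heart and skeletal muscle, Cox4i2, Cox6b2, Cox7b2, Cox8c and Ndufa4l2. The partners with a peak were Cox4i1, Cox6a1, Cox6b1 and Cox7b, and those without were Cox7a2, Cox8a and Ndufa4. The partner count depended on the settings. Cox6b1 and Cox7b lost their peak with TSSs of protein-coding transcripts only and with 1 TSS per gene. Cox6b1 was called in neither pool list alone, while the second list of both pools added Cox8a and Ndufa4.

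The heart forms had CTCF summits farther out. At Cox6a2 a peak of signal 774 (chr7:128208171-128208624) lay 2013 bp upstream and was its only conservative summit within 20 kb. At Cox7a1 a peak of 703 (chr7:30181274-30181696) lay 2659 bp upstream, and one of 714 lay 14.8 kb downstream of the start. At Cox8b a weak summit of 95.5 lay 3691 bp downstream of the start, and the strong one, of 735 (chr7:140908439-140908956), was 8246 bp upstream. With a 5 kb limit, 5 of the 8 restricted forms had a summit, against 53.8% of all genes. Ranked candidates within 1 kb were weak, 33.1 at Cox6a2 and 32.1 at Cox7a1, and none was listed at Cox8b.

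**Figure D3:**
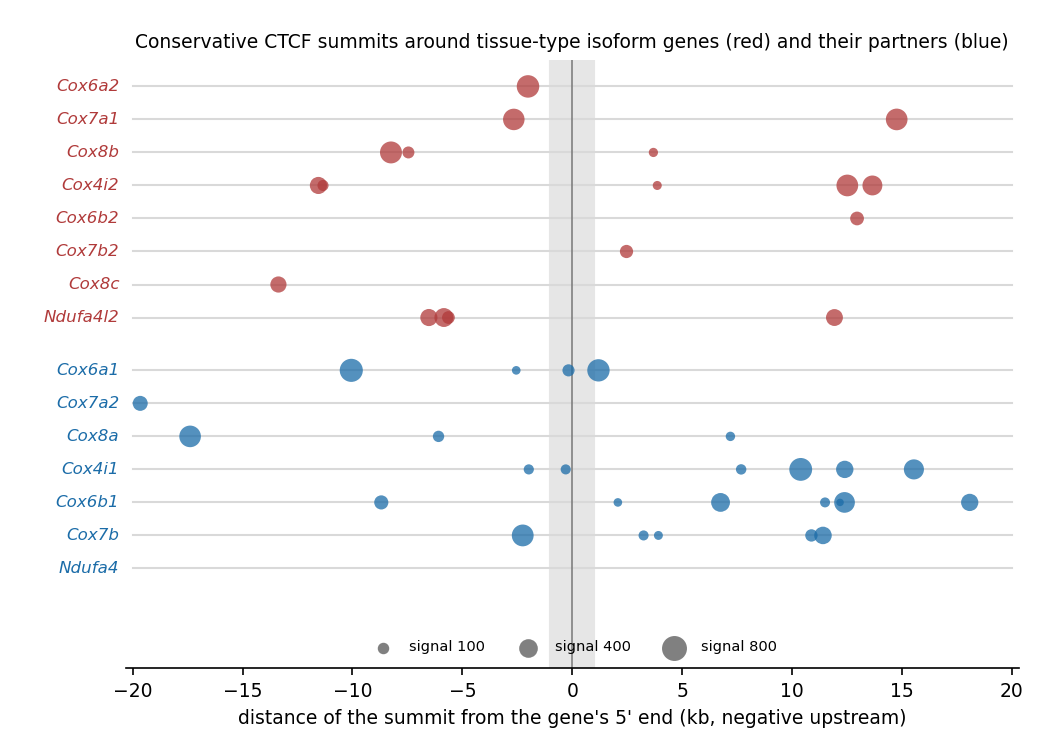
Conservative CTCF summits within 20 kb of the 5′ end of the 8 tissue-restricted isoform genes (red) and their 7 ubiquitous partners (blue), with point area growing with the authors' signal and the grey band marking 1 kb around the 5′ end. No red point lies in the band, the summits of 774 at Cox6a2 and 703 at Cox7a1 lie 2013 and 2659 bp upstream, and the Cox6b1 and Cox7b promoter peaks lie outside the band because they are near other annotated starts.

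The positions of the peaks in the 38 genes were examined next. Together they had 48 summits, and 10 genes had more than 1. Upstream of the nearest TSS lay 37 summits, and 11 lay at or downstream of it. Within 100 bp of a TSS of any protein-coding gene were 16 of 48 (33.3%), against 33.2% of the 9229 summits at all protein-coding promoters. Within 500 bp the shares were 85.4% and 75.0%. Among these genes strong peaks lay nearer the start: of the 14 genes at 600 or more, 12 had the summit within 150 bp of a TSS, and of the 16 genes under 250, 4 did. Neither this nor the upstream count was set beside the same count over all protein-coding promoters. Whether they are particular to these genes was therefore not tested. In 10 genes the strongest summit was more than 1 kb from the 5′ end of the gene, near a start annotated inside it. The annotated starts numbered 5 in the median gene with a peak and 3 in the median gene without, and over all protein-coding genes they numbered 5 and 2. Genes with more starts have more sequence within reach of the 1 kb rule, and the part this plays in the counts was not tested.

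The 3 genes just inside the limit were Ndufa13 at 998 bp (signal 691), Atp5f1 at 805 bp (221) and Uqcrh, with its summit of signal 202, at 705 bp. The 3 just outside were Ndufaf4 at 1048 bp (562), Ndufs7 at 1049 bp (183) and Ndufaf2 at 1539 bp (571).

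The core was present at 18 of the 48 summits (37.5%, interval 24 to 52.6), against 38.9% of all protein-coding promoter summits and 66.0% of all conservative summits. Of the member summits at or above the list median, 9 of 22 had it, and below the median 9 of 26. Over all promoter summits these shares were 53.9% and 26.6%, and both lie within the intervals of the member summits, 20.7 to 63.6 and 17.2 to 55.7. Atp5mpl, Atp5k and Ndufb7, which are 3 of the 6 strongest promoter peaks, had no match. A missing match says only that these letters are not in the window.

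At these genes most cores on repeats lay at weak peaks. The reference genome marks 8 of the 18 cores as repeat or low-complexity sequence (44.4%), against 20.1% of cores at all promoter summits. Of these 8 summits 6 lay below the list median, and together they had a median signal of 126 and a range of 77.5 to 409, while the other 10 had a median of 709 and a range of 71.5 to 793. The repeat cores were at Atp5b, Atp5d, Atp5f1, Atp5l, Cox6b1, Ndufa3 and, with 2 summits, Cox7b. No such split by signal was taken over all promoter summits, and the difference was not tested. The sequences of Cox7b and Cox6b1 printed above are 2 of them, and those of Uqcrc1, Ndufa6, Ndufb10, Ndufv2 and Ndufa13 are not. Of the 15 genes with a core at the strongest summit, 12 had it on the strand of the gene (80.0%), against 54.5% of 3004 protein-coding genes. With only 15 genes this share is imprecise, and whether it differs from that of all genes was not tested.

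**Figure D4:**
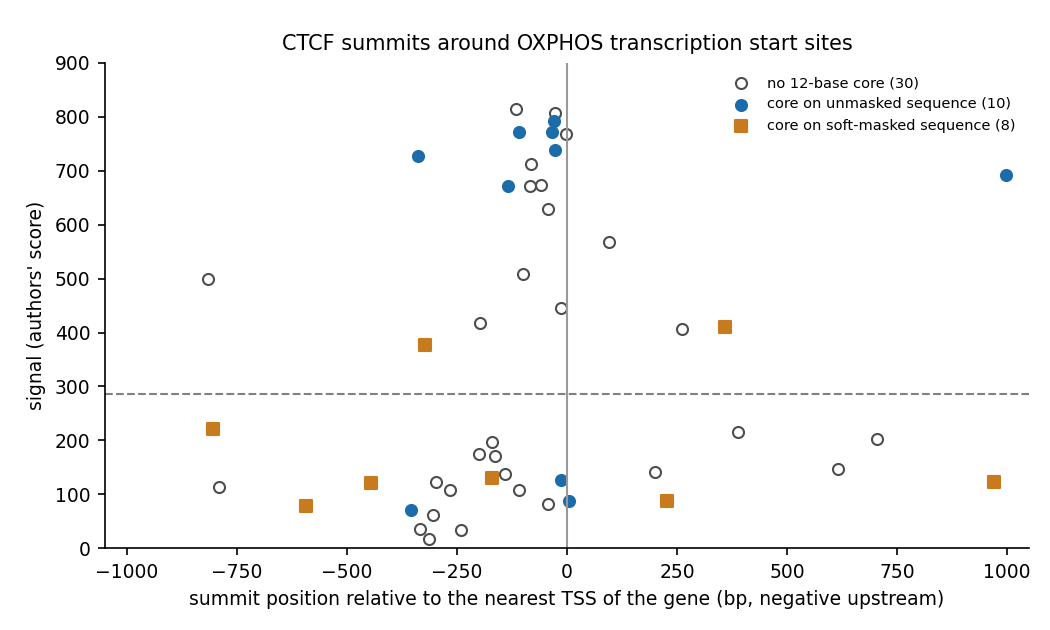
Position of the 48 CTCF summits relative to the nearest TSS of the gene (bp, negative upstream) against signal (authors' score), with the list median of 286 as a dashed line. The 8 squares, cores on soft-masked repeat sequence, do not exceed 409, and most summits above 600 lie within 150 bp of a TSS.

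Bidirectional promoters, where a second gene starts within 1 kb and is read in the opposite direction, were common among these genes: 35 of 97 (36.1%), against 11% of all protein-coding genes. The partner's start was a median of 84 bp away. A peak was found at 12 of these 35 genes (34.3%), against 50.1% of all 2406 genes with such a promoter. At the other 62 genes it was found at 26 (41.9%), against 32.6%. The intervals, 19.1 to 52.2 and 29.5 to 55.2, each take in the background share.

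Bidirectional genes with a peak included, with their partners, Atp5c1 and Kin, Atp5d and Cbarp, Atp5f1 and Wdr77, Cox4i1 and Emc8, Ndufa7 and Rps28, Ndufv3 and Wdr4, Sdha and Ccdc127, Sdhaf2 and Cpsf7, Sdhd and Timm8b, Uqcrb and Gm10767, and Uqcrh and Lrrc41. The partner also had a peak within 1 kb of its own starts in 10 of the 12. Rps28, the partner of Ndufa7, had none, and the Ndufa7 peak sits deep inside that gene. The median signal was 218 at the bidirectional genes with a peak and 523 at the others, with overlapping ranges. At or above the list median were 5 of the 12 and 17 of the 26. No such medians were taken over all protein-coding genes, and the difference was not tested. The 23 bidirectional genes without a peak include Atp5j, which shares its promoter with Gabpa. Gabpa encodes a subunit of GABP (NRF2), a factor known to act on respiratory genes.

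CpG-rich promoters were found at 63 of the 97 genes (64.9%, against 46.1% of all genes), and 27 of the 63 had a peak (42.9%), against 53.3% of all genes of that class. Of the 34 genes without a CpG-rich promoter 11 had a peak (32.4%), against 18.5%. The intervals, 30.5 to 56 for the first class and 17.4 to 50.5 for the second, take in those background shares, as the interval of the whole set takes in that of all genes. The part that promoter class plays in the overall share was not tested.

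Each of the 38 genes had a candidate in both pools. The score of pool G exceeded that of pool H at all of them, with a median ratio of 1.22 and a range from 1.03 at Ndufab1 to 1.75 at Atp5g1. The ratio was 1.12 in the median gene at 600 or more and 1.48 in the median gene under 250. How the scores of the 2 lists scale to each other is not known, so these ratios do not measure a difference in binding. Lists called from 1 pool alone gave a promoter peak at 40 of the 97 genes in pool G (41.2%, against 34.4% of all genes) and at 32 in pool H (33.0%, against 32.8%). Of the 38 genes, 28 were called in both. A second, larger list of both pools gave 49 genes (50.5%, against 38.9%). The share in pool H was close to that of all genes and the share in pool G above it.

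**Figure D5:**
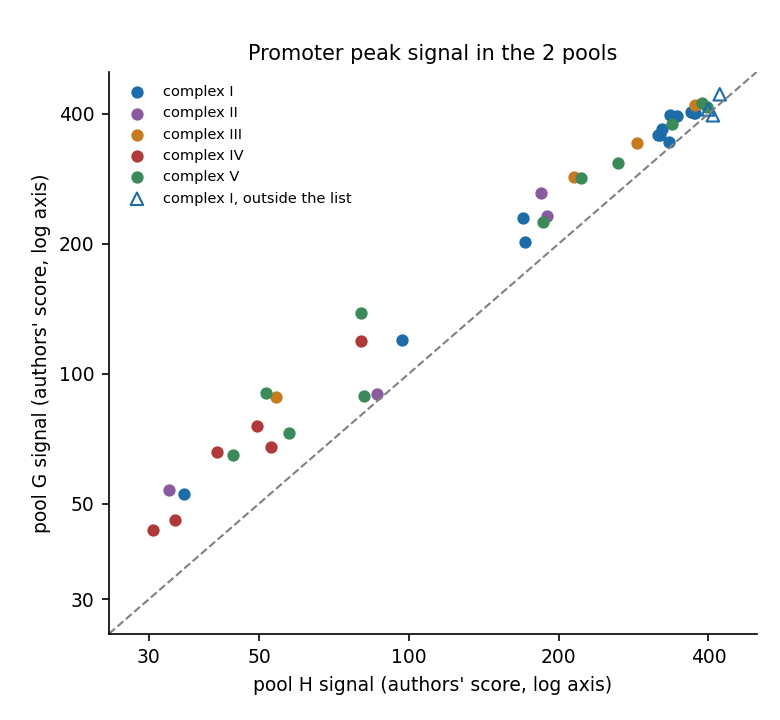
Signal of the strongest promoter peak of each of the 38 genes in pool G against pool H (authors' score, log axes), coloured by complex, with the line of equality dashed and 3 complex I genes outside the conservative list as triangles. All filled points lie above the line, by a median ratio of 1.22, and the lowest filled point is Cox5a of complex IV.

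The 59 genes without a conservative peak were not all without signal. A ranked candidate within 1 kb was listed at 49 of them (83.1%), against 44.3% of all genes without a peak. Apart from Ndufc1, Ndufaf3 and Ndufaf4, described above, the other 46 had candidates between 12.2 and 95.2, with a median of 36.1. The highest of those was at Ndufs8, an iron-sulfur subunit gene of complex I. Of the 95893 ranked candidates under signal 50, 0.699% reached the scaled IDR of 540. A weak candidate by itself therefore does not mark a reproducible peak. In complex I the genes without a peak are Ndufa1, Ndufa2, Ndufa4, Ndufa4l2, Ndufa5, Ndufa8, Ndufa9, Ndufa10, Ndufa11, all Ndufaf genes except Ndufaf6, all Ndufb genes except Ndufb7 and Ndufb10, both Ndufc genes and 7 of the 8 Ndufs genes. In the other complexes they are Sdhaf1, Sdhaf4, Sdhb and Sdhc, then Uqcr10, Uqcr11, Uqcrfs1 and Uqcrq, then Cox4i2, Cox5b, Cox6a2, Cox6b2, Cox6c, Cox7a1, Cox7a2, Cox7b2, Cox7c, Cox8a, Cox8b and Cox8c, and last Atp5a1, Atp5h, Atp5j, Atp5j2, Atp5o and Atp5s. The nearest conservative summit was a median of 6744 bp away, against 11356.5 bp for other genes without a peak. It was within 5 kb at 23 of the 59. That count was not set beside one over all genes without a peak, and the difference in medians was not tested.

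Words of transcription factor motifs were counted on both strands in the 300-base RefSeq promoters, which matched 80 of the 97 genes. The NRF1 word GCGCATGC was present in 12 of 80 (15.0%), against 4.11% of 16524 promoters, and AAGATGGC, from the motif of YY1, in 11 (13.8%), against 3.64%. CCGGAAGT, from the motif shared by ETS factors such as GABP, was in 5 (6.25%, against 5.94%), and GGGCGG, from that of SP factors, in 39 (48.8%, against 51.0%). Genes with a CTCF peak held the NRF1 word in 6 of 32 promoters (18.8%) and the YY1 word in 2 of 32 (6.25%). They held the ETS word in 1 of 32 (3.12%) and the SP word in 17 of 32 (53.1%). Over all protein-coding genes with a CTCF peak, the shares were 5.52% (NRF1), 4.66% (YY1), 8.08% (ETS) and 69.8% (SP). The members without a peak held these words, in the same order, in 6, 9, 4 and 22 of 48. These splits were not tested. A word is a description of the sequence, not a bound site.

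Other genes that serve the same process were read the same way. Electron carriers and transporters had a promoter peak at 5 of 9 genes. Among them were cytochrome c (Cycs, signal 241), cytochrome c1 of complex III (Cyc1, 166) and the adenine nucleotide carrier gene Slc25a5 (773). Assembly factors outside the symbol rule had one at 13 of 27, the strongest at Cox19 (737) and Sco2 (726), which serve copper delivery to complex IV. Transcriptional regulators and genes of mitochondrial DNA expression had one at 9 of 13, among them Gabpb1 (600) and Polrmt, the mitochondrial RNA polymerase gene (514). Ubiquinone synthesis genes had one at 3 of 10, with Coq2 at 716. In all, 30 of these 59 genes had a peak (50.8%, interval 37.5 to 64.1, against 34.6% of all genes), with a median signal of 244. The intervals by role, in the order above, were 21.2 to 86.3, 28.7 to 68.1, 38.6 to 90.9 and 6.67 to 65.2. These genes were chosen with earlier results of these data known, so the shares describe this list only. Their promoter classes were not counted. Of all genes with a CpG-rich promoter, 53.3% had a peak. Genes of the mitochondrial ribosome (Mrpl and Mrps) had one at 33 of 78 (42.3%), and genes of the cytosolic ribosome (Rpl and Rps) at 49 of 102 (48.0%).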

How the data were processed

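Peak lists of CTCF ChIP-seq from 2 pools of mouse heart were used as deposited, in mm10 coordinates per the labels. Each list gives per peak a signal score by the authors and, where stated, a scaled IDR score. The sources used here name no aligner, peak caller or signal unit. Read depth is unknown, so no counting interval could be given. The lists were the conservative list of both pools, a second list of both pools, 1 list per pool, and the ranked candidate lists. No column was left unmapped (0 columns of samples).

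Summits were taken as peak start plus offset and assigned to every gene with a GENCODE M21 TSS within 1 kb. Gene models that share a symbol were merged. A bidirectional promoter had a protein-coding TSS of another gene on the opposite strand, upstream and within 1 kb. A CpG-rich promoter had, within 500 bp of any TSS, at least 55% GC and an observed to expected CpG ratio of at least 0.6. Pool signals are those of ranked candidates of each pool with a summit within 100 bp. Intervals are 95% exact (Clopper-Pearson) intervals over genes or summits. Repeat sequence is what the RefSeq genome (GRCm38.p6) gives in lower case. RefSeq promoters hold 250 bases before and 50 after a start. Sequences are those of the reference strain and not of CAST.

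The genes and lists were chosen with earlier results of these data known. Named genes were the 10 with the strongest promoter peak, the strongest and weakest of each complex, the tissue-type isoforms and partners, bidirectional genes with a peak, the 3 genes nearest the limit on each side, and genes without a peak by complex; 1 gene that the rule names is not reported here. Others are named as examples and were chosen after their values were seen. Python 3.11.15, numpy 2.4.6, pandas 2.3.3 and scipy 1.17.1 were used, and the assignment and core search were checked on simulated data. Alternatives were the other lists, a stricter IDR, other distances and TSS sets, interval overlap, a signal minimum, other definitions of the core and of bidirectional promoters, and the addition of strong ranked candidates, which was chosen after seeing the data.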

Additional observations from a re-analysis of the deposited data

How the results depend on the processing

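The count of 38 genes was compared under each alternative. With the pool lists 1 at a time it was 32 to 40, and for complex IV it was 3 to 5. With a summit within 5 kb it was 61 genes (24 in complex I, 11 in complex IV, 22 bidirectional, 5 tissue-restricted isoforms), against 11782 of all genes, with a median signal of 582 and a core share of 62.2%. With only the 5′-most TSS of each gene, complex IV had 3 genes and complex V 7, against 6 and 11. The interval of complex V took in the share of all genes under 6 of 11 alternatives: the pool H list, the stricter IDR, 2 kb, protein-coding transcripts, 1 TSS per gene and the signal minimum. With only peaks at or above the list median, 22 genes were called (2 in complex II, 0 in complex IV, 6 in complex V, 5 bidirectional and 17 others), against 3917 of all genes. The second list of both pools gave a median signal of 215, and a core without mismatch gave a share of 18.8%. The cause of these changes was not tested, beyond what the wider window and the minimum on signal do by construction. The other 120 values stayed within 1.5 times their main count, or within the set margin for medians and shares. No paired analysis was possible because the 2 pools are replicates of 1 group and no test was run. Signals limit comparison across lists, and 2 pools limit what can be said of spread.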
